A study of Mus musculus with 4 samples.

Results

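The creatine kinase and phosphocreatine energy shuttle was described through 9 genes: Ckm, Ckb, Ckmt2, Slc6a8, Gatm, Gamt, Ak1, Ampd3 and Mb. They were taken by symbol from the array's probe annotation, which pairs each with 1 probe, and all 9 had a value on every array, among 14039 such genes. The series asked how mice lacking STIM1, the calcium sensor of the endoplasmic reticulum, remodel the heart under pressure overload. WT and STIM1KO mice each had a sham group and a TAC group, and each of the 4 groups was measured on a single array of left ventricular total RNA. All were male C57BL/6 mice, operated on at 10 weeks of age and sampled 4 weeks later, at 14 weeks. TAC, transverse aortic constriction, is a ligature tied around the aortic arch over a wire of 0.3 mm, which loads the ventricle with pressure, and sham mice had the operation without the ligature. Average heart weight to body weight, given without a unit, was 4.1 after sham and 6.7 after TAC for WT, and 4.5 and 4.9 for STIM1KO. The sources used here do not give the STIM1KO allele, the cells in which STIM1 is lost, or whether an array held RNA from 1 mouse or a pool.

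Creatine kinase moves a phosphate group between ATP and creatine. At the mitochondrion the octameric isoenzyme encoded by Ckmt2 makes phosphocreatine from newly exported ATP, and at the myofibrils and the calcium pumps the cytosolic isoenzymes, encoded by Ckm and Ckb, turn it back into ATP. The heart makes little creatine and takes it up from blood through the transporter SLC6A8, and a fall in creatine, creatine kinase activity and Ckm is a known feature of the failing and the severely hypertrophied heart. Adenylate kinase (Ak1) and AMP deaminase (Ampd3) handle the ADP and AMP left when ATP use outruns supply, and myoglobin (Mb) stores oxygen and helps its passage to mitochondria.

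With 1 array per group there is no replicate error, no test and no p-value, and every value below compares arrays, not conditions. Intensities were normalized between arrays by quantiles, and a difference is one of log2 normalized intensities, where 1 stands for 2-fold. Genes were counted at 2-fold and at 1.5-fold (0.58 on the log2 scale) among the 7020 genes whose mean reached the median over genes, a normalized intensity of 29.3. Of the 9 genes, 7 passed this filter, while Gatm and Ampd3 were dimmer. Stim1, the gene of the genotype labels, was at 41.6 after sham and 33.9 after TAC in WT, and 20.7 and 13.8 in STIM1KO. It was 2.01-fold lower in STIM1KO after sham and 2.46-fold lower after TAC, and whether its probe lies in the deleted stretch was not tested. The STIM1KO TAC array stood apart from the others. Across genes, the SD of its differences was 0.42 against either WT TAC or STIM1KO sham, compared with 0.25 between the WT arrays and 0.29 between the sham arrays. Of 10 heart muscle markers, 8 passed the filter, and Actc1 was the one without a value on all 4 arrays.

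The 3 creatine kinase genes did not share 1 direction. To show the regulatory DNA in front of the isoenzyme genes whose signals went opposite ways on the STIM1KO TAC array, the 250 bases before the RefSeq start site are printed for Ckm (GRCm38.p6, chr7:19410844-19411093, plus strand), Ckb (chr12:111672339-111672588, minus strand) and Ckmt2 (chr13:91876886-91877135, minus strand), each 5′ to 3′. Capitals mark the E-box CANNTG, the site of basic helix-loop-helix factors, searched on both strands.
Ckm: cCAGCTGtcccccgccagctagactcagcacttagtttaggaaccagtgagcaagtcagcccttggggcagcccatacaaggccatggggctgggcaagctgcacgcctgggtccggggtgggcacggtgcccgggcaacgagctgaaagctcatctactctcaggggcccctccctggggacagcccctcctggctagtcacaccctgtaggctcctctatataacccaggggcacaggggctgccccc
Ckb: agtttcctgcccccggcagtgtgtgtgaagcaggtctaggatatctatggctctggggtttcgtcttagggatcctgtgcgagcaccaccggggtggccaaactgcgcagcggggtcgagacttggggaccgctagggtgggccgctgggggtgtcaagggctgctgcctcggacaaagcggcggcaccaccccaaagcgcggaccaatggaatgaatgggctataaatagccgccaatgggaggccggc
Ckmt2: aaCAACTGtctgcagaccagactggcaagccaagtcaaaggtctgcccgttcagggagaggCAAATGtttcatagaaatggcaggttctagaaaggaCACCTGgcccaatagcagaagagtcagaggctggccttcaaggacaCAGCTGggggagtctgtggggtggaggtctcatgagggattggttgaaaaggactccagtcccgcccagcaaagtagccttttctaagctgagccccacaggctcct
The Ckmt2 window held 4 E-boxes, the Ckm window 1 and the Ckb window 0, and 66.2% of 32851 such windows over all genes held at least 1. The GC box GGGCGG matched once in Ckmt2 and in neither other window, against 32.7% of all windows. TATAAA matched once in Ckb, ending 22 bases before the start, against 12.4%, and the MEF2 site pattern, found in 1.69%, matched overlapping bases there. The Ckm window holds the letters tatataa near its end, which differ from TATAAA, and such variants were not searched for. MCAT, CATTCC, matched once in Ckb, against 12.6%. These matches describe letters and show no binding.

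Ckm, the muscle cytosolic isoenzyme bound at the M-band of the sarcomere, had a normalized intensity of 6415 and 6647 on the WT arrays (sham, then TAC) and 6534 and 4716 on the STIM1KO arrays. The first 3 arrays lay close together and STIM1KO TAC was the low one. It was lower by 0.47 than STIM1KO sham (1.39-fold) and by 0.50 than WT TAC (1.41-fold), while WT TAC differed from WT sham by 0.05. The difference between the sham arrays was 0.03, or -0.02 with the values as deposited, so its sign is not settled. In whole tissue, fewer heart muscle cells and less RNA per cell cannot be told apart in such values.

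Ckmt2, the sarcomeric mitochondrial isoenzyme, ran the other way, with 16663 after sham and 13695 after TAC in WT, and 15712 and 17885 in STIM1KO. WT TAC was its lowest array and STIM1KO TAC its highest. TAC minus sham was -0.28 in WT and 0.19 in STIM1KO, and STIM1KO TAC was higher than WT TAC by 0.39.

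Ckb, the brain-type cytosolic isoenzyme, which the heart also makes and which re-expresses with the fetal program in hypertrophy, had 653 after sham and 761 after TAC in WT, and 628 and 585 in STIM1KO. It was highest in WT TAC, by 0.22 over WT sham, and STIM1KO TAC was lower than WT TAC by 0.38. Between the TAC arrays Ckb had the sign of Ckm, and Ckmt2 the opposite one. Relative to Ckm, the Ckmt2 signal differed by -0.33 between TAC and sham in WT, by 0.66 in STIM1KO, and by 0.88 (1.84-fold) between STIM1KO TAC and WT TAC. This ratio shows unequal change of these 2 probes and not which of them moved.

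**Figure D1:**
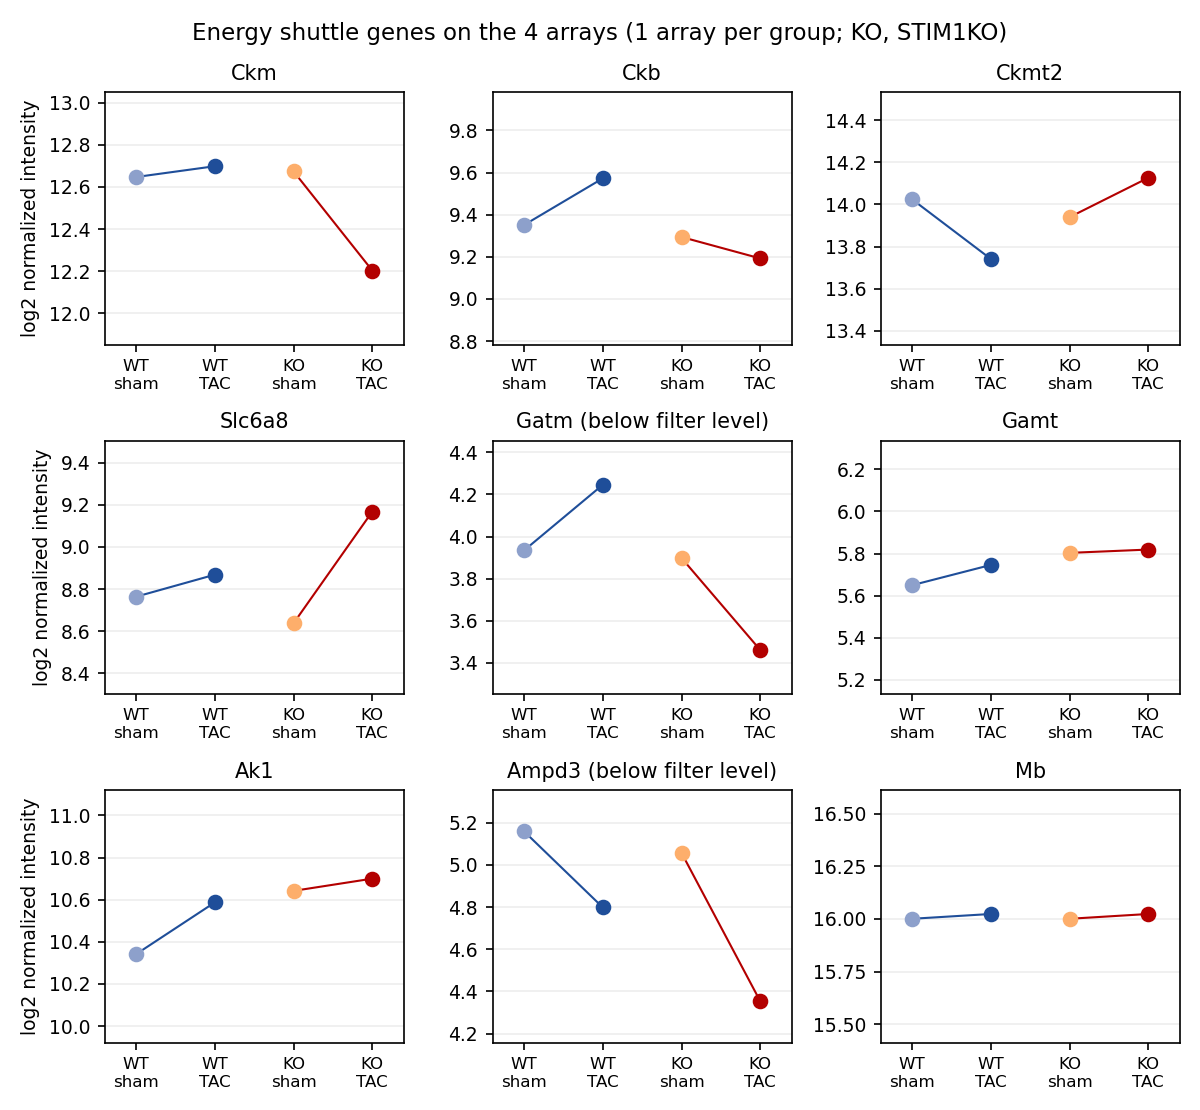
Log2 normalized intensity (vertical axis, 1 point per array) of the 9 genes on the 4 arrays (horizontal axis, KO for STIM1KO), with sham and TAC of a genotype joined by a line. All panels span the same number of log2 units, so slopes compare between genes, and levels do not. Ckm is flat on 3 arrays and low on STIM1KO TAC, Ckmt2 and Slc6a8 are highest there, and Mb is flat by construction of the normalization.

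Creatine supply was read from 3 genes. Slc6a8, the creatine transporter, had WT values of 435 (sham) and 467 (TAC) and STIM1KO values of 398 and 575. STIM1KO TAC was highest and STIM1KO sham lowest, a difference of 0.53 (1.44-fold), the widest range of the 7 filtered genes. The WT response was 0.10. STIM1KO was lower than WT by 0.13 after sham and higher by 0.30 after TAC. Gatm, glycine amidinotransferase, catalyses the first step of creatine synthesis. It was dim, with 15.3 after sham and 19.0 after TAC in WT, and 14.9 and 11.01 in STIM1KO. The sham arrays differed by -0.04, WT TAC was higher by 0.31 than WT sham, and STIM1KO TAC was lower by 0.44 than STIM1KO sham and by 0.78 than WT TAC (1.72-fold). Once an offset of 5.49 intensity units was added before log2, this last difference was -0.57, under 1.5-fold. Gamt, guanidinoacetate N-methyltransferase, performs the second step. It was the steadiest apart from Mb, with 50.2 and 53.7 on the WT arrays (sham, then TAC) and 55.8 and 56.5 on the STIM1KO arrays.

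Ak1, the cytosolic adenylate kinase, which makes ATP and AMP from 2 ADP, had WT values of 1298 (sham) and 1539 (TAC) and STIM1KO values of 1598 and 1664. WT sham was the low array. The others were higher, WT TAC by 0.25, or 0.38 as deposited, and STIM1KO sham by 0.30. The order of the 3 upper arrays is not settled, since STIM1KO TAC against WT TAC was 0.11 here and -0.03 with the values as deposited. Ampd3 encodes an AMP deaminase, which converts AMP to IMP and so draws on the adenine nucleotide pool. It had 35.7 after sham and 27.8 after TAC in WT, and 33.3 and 20.4 in STIM1KO. It was the single gene of the 9 that was lower by more than 0.3 after TAC in both genotypes, by 0.36 in WT and 0.70 in STIM1KO (1.63-fold). Its sham values were above the filter level of 29.3, and its mean over the 4 arrays was just under it. With the offset the differences were -0.31 and -0.58, the latter then under 1.5-fold.

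Mb gave the highest signal of any probe on all 4 arrays, so quantile normalization fixed its value, and its normalized differences near 0 measure nothing. Its deposited intensities were 63075 and 70132 on the WT arrays (sham, then TAC) and 62746 and 70859 on the STIM1KO arrays. On both sham arrays 1 other probe had exactly the same value as Mb, and on the TAC arrays none had. On WT sham, 3 probes lay within 1% of the highest value. Whether the probe was saturated was not tested. As deposited, TAC differed from sham by 0.15 in WT and 0.18 in STIM1KO, or by 0.12 and 0.07 with each array centred on its median. If the probe was at its ceiling, these differences are not measured either. Mb stays among the 7 filtered genes in the counts that follow, and the medians leave it out.

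The first comparison was the response of WT to TAC, the pair of groups with the larger difference in heart weight to body weight. None of the 7 filtered genes reached 2-fold (0.313% of all filtered genes did) or 1.5-fold (2.85% did). Of the 6 other than Mb, 5 were above 0 (47.3% of all filtered genes were), from 0.05 for Ckm to 0.25 for Ak1, and Ckmt2 was below. The median of the 6 was 0.10, beside -0.01 for all filtered genes. The difference of Ckmt2 was matched or exceeded in size by 22.2% of all filtered genes, that of Ak1 by 28.5% and that of Ckb by 33.2%, so these 3 lay inside the spread of the table.

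In the response of STIM1KO to TAC, Slc6a8 was higher and Ckm lower than in sham, by the 0.53 and 0.47 given above. Again 0 of 7 were at 2-fold (1.85% of all) or at 1.5-fold (14.4% of all). Differences at least as large were found in 18.6% of all filtered genes for Slc6a8 and 23.9% for Ckm. The median of the 6 was 0.04, beside 0.00 over all filtered genes. With median centring, where Gamt and Ak1 changed sign, these medians were -0.04 and -0.07. Ampd3 passed 1.5-fold but not the filter, and 15.7% of the 14039 genes differed at least as much.

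**Figure D2:**
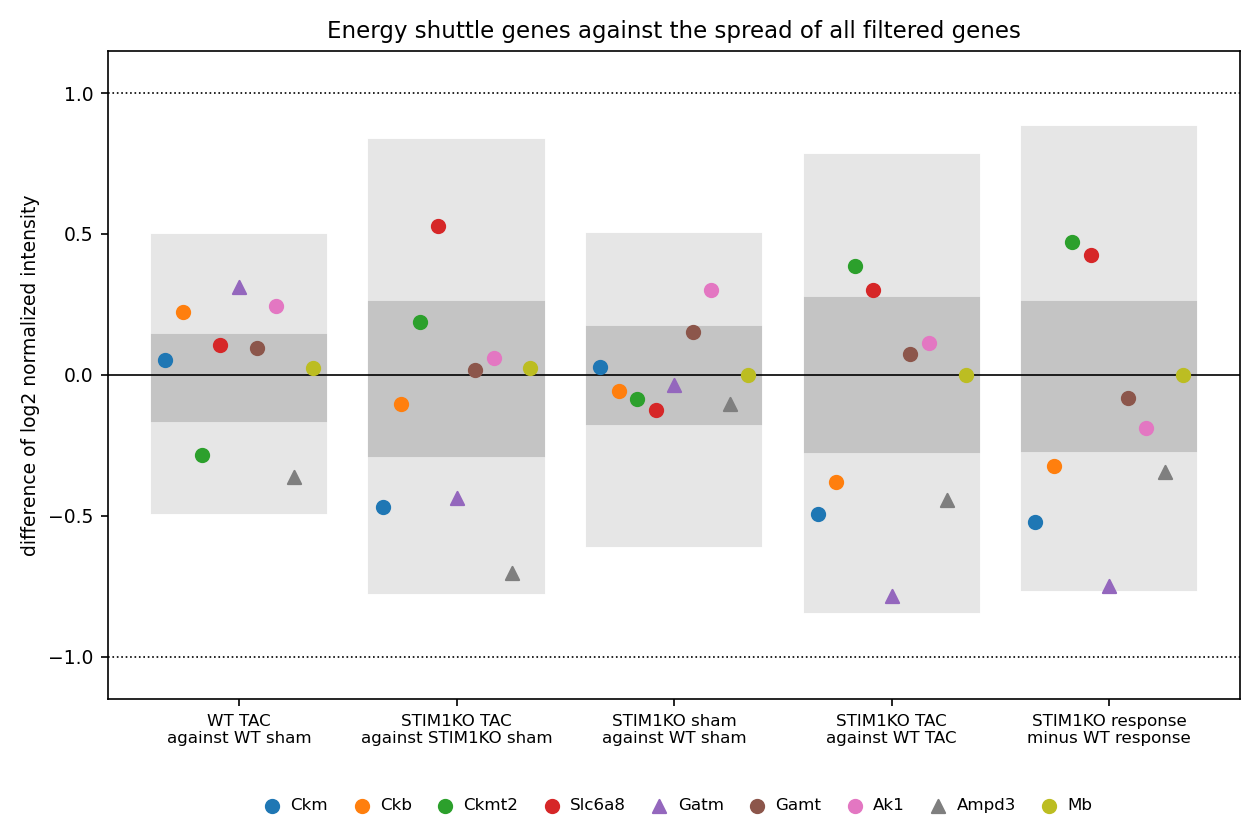
Differences of log2 normalized intensity (vertical axis) of the 9 genes in the 5 comparisons (horizontal axis). Dark and light grey bands hold the middle 50% and 95% of the 7020 filtered genes, triangles are the 2 genes below the filter level, and dotted lines mark 2-fold. No gene lies outside the light band, and bands and genes both spread least in the comparisons without STIM1KO TAC.

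After the sham operation, the creatine kinase genes differed little between STIM1KO and WT, Ckm by 0.03, Ckb by -0.06 and Ckmt2 by -0.08. Differences of the 7 ran from -0.13 for Slc6a8 to 0.30 for Ak1 (0 of 7 at 2-fold, against 0.556% of all, and 0 at 1.5-fold, against 3.96%). Ak1 was the largest, and 25.2% of filtered genes differed as much. The median of the 6 was -0.02, or 0.02 with median centring, so its sign is not settled.

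After TAC, STIM1KO was lower than WT for the cytosolic creatine kinases, Ckm by 0.50 and Ckb by 0.38, and higher for Ckmt2 by 0.39 and Slc6a8 by 0.30. Gamt (0.07) and Ak1 (0.11) differed little. None of the 7 was at 2-fold (1.97% of all) or 1.5-fold (14.5% of all). The median of the 6 was 0.09, beside 0.01 over all filtered genes, and as deposited these medians were 0.01 and -0.04. For Ckm, 21.6% of filtered genes were at least as far from 0, for Ckmt2 34.1% and for Ckb 34.8%. Gatm, at -0.78, was past 1.5-fold below the filter level, as far as 11.5% of the 14039 genes. Signs of Ckm, Ckb, Ckmt2, Slc6a8 and Gatm held under median centring and the values as deposited, at -0.57, -0.49, 0.34, 0.21 and -0.75 in each.

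Subtracting the WT response from the STIM1KO one gave -0.52 for Ckm, -0.32 for Ckb, 0.47 for Ckmt2, 0.43 for Slc6a8 and -0.75 for Gatm. Of the 7 filtered genes, 0 were at 2-fold (2.15% of all) and 0 at 1.5-fold (14.1% of all). The median of the 6 was -0.13, beside -0.02 over all filtered genes, and with median centring these medians were -0.27 and -0.10. Values this far from 0 were shown by 19.0% of filtered genes for Ckm, 23.9% for Ckmt2 and 28.4% for Slc6a8. With median centring Ckm was at -0.62, past 1.5-fold, as were 15.4% of all filtered genes with that scaling. Ckb was then at -0.48 and Slc6a8 at 0.29. As deposited, Gatm was at -0.64. These comparisons share arrays, since each array enters several of them.

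The STIM1KO TAC array held the highest or the lowest of the 4 values in 6 of the 7 filtered genes. It was lowest for Ckm and Ckb and highest for Ckmt2, Slc6a8, Gamt and Ak1, with Mb tied between the TAC arrays. The same array was the extreme one for 73.5% of all filtered genes, against which the 6 of 7 are to be read. With median centring it was 5 of 7, Mb among them, where Gamt and Ak1 were highest in STIM1KO sham.

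Genes around the shuttle were taken from 10 lists of 95 genes in all, 72 of them measured on all arrays and 51 above the filter level. At 1.5-fold in WT, 2 of the 51 were higher after TAC (1.55% of all filtered genes were) and 1 lower (1.3%). In STIM1KO, 5 were higher (7.31%) and 6 lower (7.11%). Between the sham arrays 0 were higher (1.23%) and 0 lower (2.74%), and between the TAC arrays 3 were higher (6.31%) and 5 lower (8.22%). The medians of the 51 were -0.02, -0.03, 0.02 and 0.00 in that order. The split of calls over the whole table moved with the scaling. In the STIM1KO response 513 genes were higher and 499 lower, against 380 and 669 with median centring and 604 and 386 as deposited. Between the TAC arrays 443 were higher and 577 lower, against 344 and 741 or 349 and 725, and in WT 109 and 91, against 146 and 74 as deposited.

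Among genes that use or carry the shuttle's product, the 4 filtered contractile and pump ATPases were all below 0 in the STIM1KO response, with a median of -0.37. Over all filtered genes the median of that response was -0.004, and 49.4% were above 0. Myh6, the adult myosin heavy chain, was at -0.46, Atp2a2, the calcium pump, at -0.28, and Myh7, the slow chain, at -0.59, or -0.54 as deposited. In WT, 3 of the 4 were below 0 (47.3% of all filtered genes were above 0) and Myh7 was at 0.59. Of 4 filtered genes for M-band and nearby sarcomere proteins, Myom2, the M-band protein myomesin 2 that sits beside Ckm, was at 0.56 for WT and -1.02 for STIM1KO after TAC, and at -1.55 between the TAC arrays. Myom1 ran opposite to it there, at 0.49. Eno3, muscle enolase, was lower by 0.26 after TAC in WT and higher by 0.82 in STIM1KO.

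Exchange between the mitochondrion and the cytosol, the step that feeds Ckmt2, had 6 filtered genes. In the WT response 4 were below 0 and 1 above (47.3% of all filtered genes were above), with a median of -0.15. In STIM1KO the median was 0.14, or 0.00 with median centring. Slc25a4, the heart ADP/ATP carrier, held the same rank on all arrays, so that its normalized value could not vary; as deposited it was at -0.10 in WT and -0.12 in STIM1KO. Slc25a3, the phosphate carrier, was at -0.10 and 0.43, and Slc25a5, a second ADP/ATP carrier, at -0.20 and 0.28. The outer membrane channels split between the TAC arrays, with Vdac1 higher by 0.68, Vdac2 lower by 0.77 and Vdac3 lower by 0.35.

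Of 6 filtered genes for AMPK, the kinase that senses AMP, and its upstream kinases, 0 passed 1.5-fold in WT. In STIM1KO 2 were lower, beside 7.11% of all filtered genes, or 3 with median centring, where Prkab1 was at -0.59, and 1 as deposited. Prkaa2, the catalytic subunit that prevails in heart, was at 136 after sham and 113 after TAC in WT, and 120 and 67.7 in STIM1KO. It was lower after TAC by 0.26 for WT and 0.82 for STIM1KO, and by 0.75 between the TAC arrays. Cab39, a scaffold of the kinase LKB1, was lower by 0.59 in the STIM1KO response, or 0.56 as deposited.

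Adenine nucleotide turnover had 7 filtered genes. Nt5c, a cytosolic 5′-nucleotidase, was at 0.95 in the STIM1KO response, just past 2-fold as deposited, and 0.06 in WT. The other 6 stayed under 1.5-fold in both. Of all filtered genes, 7.31% were higher by at least 1.5-fold in the STIM1KO response. Adsl, an enzyme of the purine nucleotide cycle beside AMP deaminase, was higher by 0.35 in WT and 0.24 in STIM1KO. Of 5 other filtered adenylate and nucleoside diphosphate kinases, Ak3, the matrix GTP:AMP kinase, was lower in both responses, by 0.41 and 0.71, and Nme2 was higher in both, by 0.70 and 0.59, or 0.50 in STIM1KO with median centring.

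Creatine precursor and methyl supply had 6 filtered genes with a median of -0.11 in WT and -0.03 in STIM1KO. Mat2b, a regulatory subunit of the enzyme that makes the methyl donor of the Gamt step, was at -0.36 and -0.66. Ckmt1, the ubiquitous mitochondrial creatine kinase, had a deposited intensity of 2.51 in WT sham, 1.54 in WT TAC and 2.98 in STIM1KO TAC and an empty cell in STIM1KO sham, the 3 values lying under the first quartile of their arrays. Slc6a6, the taurine transporter related to Slc6a8, was lower by 0.57 in STIM1KO TAC than in WT TAC, or 0.64 with median centring.

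Among 11 filtered regulators of muscle energy genes, Esrrg, the estrogen-related receptor gamma that drives mitochondrial genes, was higher in STIM1KO TAC than in WT TAC by 1.04, or 0.99 with the other 2 scalings, which is under 2-fold. Ppara, the fatty acid receptor, was lower there by 0.96, or 1.01 with the other scalings. Ppargc1a, the coactivator PGC-1 alpha, differed by 0.14, and Esrra by 0.37. Ppargc1b was lower by 0.68 in the WT response.

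**Figure D3:**
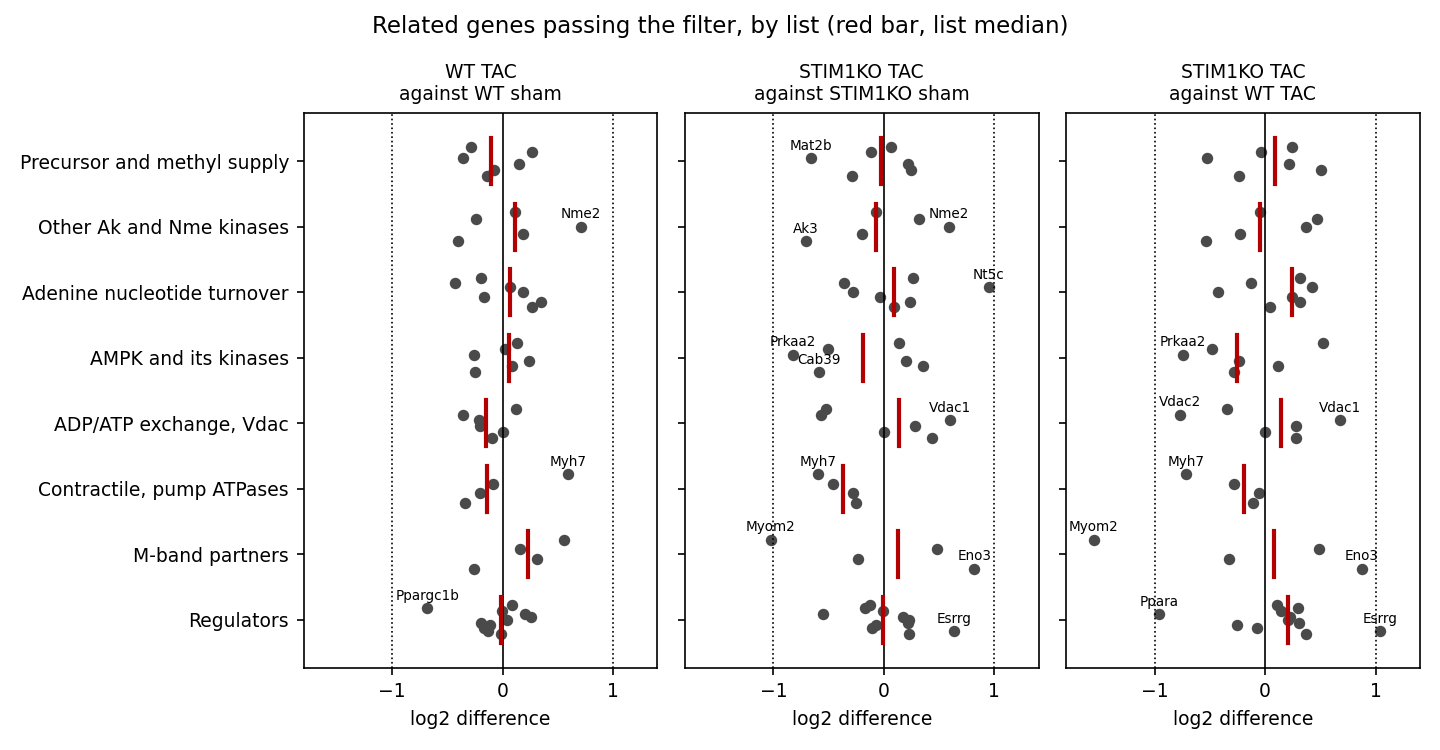
Log2 differences (horizontal axis) of the filtered genes of 8 related lists (rows), 1 point per gene, in the WT response, the STIM1KO response and between the TAC arrays. The red bar is the list median, dotted lines mark 2-fold, and genes at 1.5-fold are named. Points spread more widely in the panels with STIM1KO TAC, on both sides of 0, as in the values of Myom2 (-1.55) and Esrrg (1.04).

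The genes most like Slc6a8 and Ckm, the filtered genes of widest range among the 9, were found by the distance between log2 profiles, each centred on its mean over 4 arrays, among 6859 genes. Nearest to Ckm were Ldha, lactate dehydrogenase A, at a distance of 0.0088, then Safb2, Gins4, Rps6kb1 and Cited2 at 0.025 to 0.032, beside a median of 0.51 over all genes. Ldha had 4511 after sham and 4641 after TAC in WT, and 4595 and 3314 in STIM1KO, low on the same array. Nearest to Slc6a8 were Nipsnap3a, Dazap2, Ly6e, Qtrt2 and Haus1, at 0.028 to 0.038, with a median of 0.48. With 4 arrays, such closeness among 6859 genes is a description only.

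Markers of the cell types in the tissue are given beside these values. The summed normalized intensity of 9 heart muscle markers was 150471 and 160887 on the WT arrays (sham, then TAC) and 164253 and 182917 on the STIM1KO arrays. Its high value in STIM1KO TAC rested on Tnnt2, troponin T, and without it the other 8 summed to 116869, 122172, 125538 and 124831 in the same order. Myl2, Tnnt2 and Tnni3 lay near the top of the arrays, where quantile normalization hands the same values from gene to gene. The value 58086 was that of Myl2 on the WT arrays and STIM1KO sham, and of Tnnt2 on STIM1KO TAC. In the WT response Myl2 was at 0 normalized and at -0.21 as deposited. Both sums are limited by this, and they were not taken with the other scalings. Between the TAC arrays 5 of the 8 filtered markers were below 0 (51.1% of all filtered genes were above 0), and the median was -0.13. Myh6 was at -0.28 and Nppa at -0.57, and Tnnt2 was at 0.59, or 0.39 with median centring. Endothelial markers, 9 of 9 with a value, summed to 3604, 3286, 2556 and 2200 in that order, and 9 fibroblast markers to 5141, 4588, 4044 and 3316. The endothelial sum was lowest in STIM1KO TAC also without Egfl7, the marker that differed most in intensity between the TAC arrays (1760, 1365, 1150 and 1006). The order of the fibroblast sum rested on Dcn, and without it the other 8 summed to 1862, 1709, 1639 and 1883. Of 8 filtered fibroblast markers, 4 were above 0 between the TAC arrays. For 7 smooth muscle and pericyte markers, cells that also make Ckb, the sums were 1643, 1351, 1738 and 998. Without Rgs5 the other 6 summed to 1333, 1022, 1503 and 858. These markers split between the TAC arrays, with 3 of the 4 filtered ones below 0 and 1 above. The median over all 7 was 0.05 there. For 8 macrophage markers the sums were 2246, 2385, 1964 and 2550. Skeletal muscle, a tissue rich in Ckm, gave sums of 136, 132, 144 and 157 over 7 of 10 markers, with 2 of them above the filter level and Myh1, Myh2 and Atp2a1 not measured on all arrays. Of 8 red cell markers 2 were measured on all arrays, none of them a globin, with Alas2 at 73.1, 69.2, 68.3 and 118, highest in STIM1KO TAC. Atrial markers summed to 121, 143, 147 and 209, and without Bmp10, the one of the 4 above the filter level, to 35.2, 48.0, 35.9 and 32.1. The sums were, for 2 of 4 adipocyte markers, 48.9, 46.5, 54.0 and 47.9, and for 3 of 5 neural markers 34.4, 33.0, 56.0 and 42.8. The part of these cells in the values of the 9 genes was not tested.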

How the data were processed

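Values deposited by the authors were linear intensity, 1 for each probe on each array. The RNA carried amino allyl groups from its amplification and was coupled to Cy5, per the labels' protocols. The sources used here do not give the scanner, the background correction, the scaling or the rule for empty cells. Every deposited column had a median near 20.0, and 19607 of 23473 probes had a value on all 4 arrays. Symbols came from the platform annotation (16631 probes with 1, 0 with several, 6842 without), and 3947 were updated through a RefSeq table of GRCm38.p6, used for names. Log2 medians of the arrays spread over 0.101, and log2 values were quantile normalized over the shared probes (limma 3.58.1 in R 4.3.3). The brightest probe stood for a gene, and genes with a mean at or above the median level were counted. Promoter sequences are RefSeq's, from a table in which 8 of the 9 genes matched. Steps were tested on simulated data. The number of arrays limits the precision.

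The 9 genes and the lists around them were chosen with earlier results of these data known. Within a list, genes named were those with the largest differences in a comparison described. A few others, such as Ppargc1a, Esrra, Myom1, Adsl and Slc25a3, and the listed markers, were named after their values were seen. Alternatives were median centring, values as deposited, no filter, a 75th percentile filter, an offset of 5.49 before log2, and the mean over probes. Medians without Mb, and marker sums without the marker that differed most between the TAC arrays, were added after seeing the data.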

Additional observations from a re-analysis of the deposited data

Results flagged for a closer look

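For 5 genes the effect had opposite signs in the groups compared, with 1 array on each side, so each difference was not tested. How many genes of the whole table had opposite signs was not counted, so the 5 show nothing particular to the shuttle. The responses to TAC in WT and STIM1KO had opposite signs for Ckm (difference of responses -0.52), Ckb (-0.32), Ckmt2 (0.47) and Gatm (-0.75). In WT the Ckm response was only 0.05, and 81.9% of filtered genes were at least as far from 0. In STIM1KO the Ckb response was -0.10, matched or exceeded in size by 80.1% of filtered genes. The difference of responses of Ckb was -0.48 with median centring. For Slc6a8 it was the genotype difference that turned, from -0.13 after sham to 0.30 after TAC (0.43, or 0.29 with median centring).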

How the results depend on the processing

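No count of filtered genes at 2-fold moved from 0 under any of the 6 alternatives or without Mb, an alternative chosen after seeing the data. At 1.5-fold with no filter on dim genes, the count went from 0 to 1 through Ampd3 in the STIM1KO response, where 22.9% of all 14039 genes were called. The count went to 1 through Gatm in the comparison of the TAC arrays (22.8% of all) and also in the difference of responses (25.7% of all). It also went to 1 in the difference of responses with median centring, through Ckm, where 15.4% of all filtered genes were called. The median difference of responses, Mb included, went from -0.08 to -0.19 with no filter, where 9 genes counted. The other 100 counts and medians over all alternatives moved by less than 0.1 or not at all. Of the values of single genes, 235 moved by less than 0.1 and 20 by more, 7 of them under median centring, 9 with the values as deposited and 4 with the offset, and none past 1.5-fold changed sign. The offset ended each 1.5-fold call of Gatm and Ampd3, with Gatm at -0.57 between the TAC arrays and at -0.54 for the difference of responses, and Ampd3 at -0.58 in the STIM1KO response. Each gene rests on 1 probe, so the mean over probes could not change them. No paired analysis was possible because each group has 1 array. Signal limits Gatm and Ampd3, which lay near or below the median level.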
